A study of Mus musculus with 2 samples.

Results

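Germ cells taken from XY gonads were compared with germ cells taken from XX gonads at embryonic day (E) 12.5, before any culture. The groups compared were the 8 libraries labelled 0 h, 4 XY (replicates 2, 3, 5 and 6) and 4 XX (replicates 2, 3, 4 and 5), out of 40 libraries in the study. The study cultured E12.5 gonad-mesonephros samples for 24 or 72 h with vehicle (DMSO) or with inhibitors of the FGF receptors or of MEK1/2, and sequenced germ cells sorted from them. The libraries after 24 and 72 h in DMSO, 4 XY and 4 XX at each time, were used to follow the genes found at 0 h. All 40 libraries entered the fit, where they set which genes were tested, the scaling and the shared estimate of the spread.

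Every embryo came from an Oct4-eGFP male of the 129T2svJ strain and a Swiss female, carried the Oct4-eGFP transgene and was otherwise labelled wild type. The 0 h groups received no inhibitor and no vehicle, and the 24 and 72 h groups used here received DMSO alone. Embryos were assigned as XY or XX from the presence or absence of testis cords, gonads were pooled for each sample, the mesonephros was removed, and GFP-positive cells were sorted, although counts of somatic and blood marker genes were present in every library, as given below. Since a sorted sample is a pool of gonads, each value is a mean over many cells, and fewer cells with a transcript cannot be told apart from less transcript per cell. The labels do not say which samples shared a litter, so the p-values measure the spread between samples and not between litters. In the limma fit that spread was estimated over all 40 libraries, whereas the permutation tests used these 8 alone.

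Germ cells reach the gonad as bipotential cells that express pluripotency genes. In the testis they pass through a phase of NODAL signalling, stop dividing and enter the male pathway that leads to piRNA production and new DNA methylation, while in the ovary BMP and retinoic acid signals precede *Stra8* expression and entry into meiosis. NODAL and BMP are ligands of the TGF-beta superfamily: NODAL acts through activin receptors, SMAD2/3 and FOXH1 and induces its own inhibitors LEFTY1 and LEFTY2, and BMPs act through SMAD1/5/9 and induce the ID genes.

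Each library held between 1178953 and 3894977 deduplicated molecule counts, with XY replicate 5 the shallowest and XY replicate 3 the deepest, and 18172 to 22218 genes had at least 1 count. The Y-linked genes *Eif2s3y*, *Ddx3y*, *Kdm5d* and *Uty* separated all 8 libraries by their label. Germ cell markers were high in every library: *Dppa3* was 1152 ± 133 counts-per-million (CPM, mean ± SD, n = 4) in XX and 1522 ± 202 in XY germ cells, and *Dazl* was 1256 ± 71.7 and 1076 ± 102 CPM. The 9 lists of cell type markers were tested with a two-sided exact permutation test, for which the smallest possible p with 4 against 4 is 0.0286. The 10 germ cell markers took 0.335 ± 0.00997% of counts in XX and 0.324 ± 0.0184% in XY libraries (adjusted p = 0.418 over the 9 lists, exact permutation test). Markers of gonadal somatic cells and blood together took 0.0127 to 0.0179% of counts in XX and 0.0177 to 0.0645% in XY libraries (p = 0.0857, exact permutation test), with the highest share in XY replicate 5. The blood list was higher in XY (0.00402 ± 0.000795% against 0.018 ± 0.0143%, adjusted p = 0.0429, exact permutation test), and so, at the same adjusted p, were the Sertoli, Leydig, stromal and endothelial lists, whereas the ovarian supporting list, which holds *Irx3*, was higher in XX. *Sry* and *Insl3* had no count in any of the 8 libraries. The part of such cells in the results below was not tested. In a principal component analysis of 2000 autosomal genes, component 1 (50.6% of the variance) placed the XX libraries between -30.0 and -25.0 and the XY libraries between 22.2 and 37.3, and component 2 (14.8%) set XY replicate 5 apart at 32.7.

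The 0 h libraries were sequenced in the same pool as the 24 h DMSO libraries, and each carried the same sample index as a 72 h DMSO library of the same sex in the second pool. The genes with the lowest ratio to the partner bound the share of a partner's counts present in a 0 h library at 4.27 to 5.88%. Transcripts of the 0 h cells and counts that reached a 0 h library from its 72 h partner cannot be told apart. Each gene group below is given at 0 h with the deposited counts and again after this largest possible share of the partner had been subtracted.

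Of 14335 autosomal genes tested, 191 were higher in the XY libraries and 214 were lower (2.83% called; limma treat against a 1.5-fold change, Benjamini-Hochberg adjusted p under 0.05), which is 1.33 and 1.49% of those tested. The median difference among called genes was 1.81 on the log2 scale for those higher in XY and 1.96 for those lower in XY. Differences of at least 4-fold were fitted for 78 and 104 of them. The XX and XY libraries did not overlap for 184 of the 191 and 209 of the 214 genes, against 21.1% of all autosomal genes tested. Of 635 X-linked genes tested 33 (5.2%) were lower and 3 (0.472%) higher in XY. A fit of the 8 libraries at 0 h alone called 161 autosomal genes higher and 202 lower in XY. Without XY replicate 3 the autosomal genes lower in XY numbered 124, and without XX replicate 5 those higher in XY numbered 115. Without XY replicate 5, the library that stood apart, 177 were higher and 193 lower. After subtraction of shared-index counts, when 1.04% of all genes tested were called higher and 1.67% lower in XY, 140 of the 191 and 186 of the 214 were still called in the same direction.

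**Figure D1:**
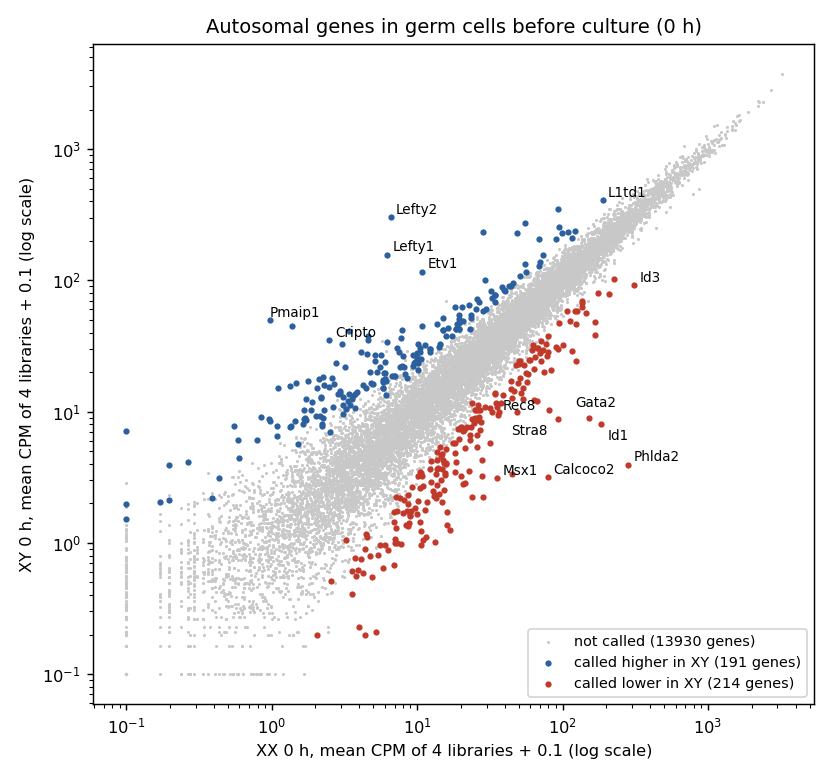
Mean CPM + 0.1 of the 4 XX libraries (x axis, log scale) against that of the 4 XY libraries (y axis, log scale) for the 14335 autosomal genes tested, each a point. The 191 genes called higher in XY (blue) lie above the diagonal and the 214 called lower in XY (red) below it, with *Lefty2* and *Phlda2* among the farthest from it.

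NODAL signalling was the group with the most members higher in XY germ cells. Of 23 listed genes 18 were tested, and 7 were higher and none was lower in XY, where 1.34% of all genes tested were called higher. The median log2 difference of the 18 genes was 0.47, against 0.03 for all genes. They included the ligand *Nodal*, its co-receptor *Cripto*, both *Lefty* inhibitors and the targets *Otx2* and *Pmepa1*, and all 7 remained called after subtraction of shared-index counts and under each of the other 19 alternative settings.

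*Nodal* itself was low in XX, at 2.1, 2.7, 1.55 and 1.39 CPM in replicates 2, 3, 4 and 5, and stood at 16.2, 17.4, 7.13 and 19.2 CPM in XY replicates 2, 3, 5 and 6. The groups did not overlap, XY replicate 5 was the lowest of its group, and the difference was 3.05 ± 0.44 (log2, SE; limma adjusted p = 4.62e-05). *Cripto*, the EGF-CFC co-receptor through which NODAL binds its receptors, was 2.1, 2.32, 3.49 and 1.67 CPM in the XX and 32.5, 31.4, 41 and 34.5 CPM in the XY libraries (log2 difference 3.75 ± 0.38 SE, adjusted p = 6.31e-09). The LEFTY inhibitors bind NODAL or its co-receptor and limit the signal, and both genes stood far higher in all 4 XY libraries than in any XX library. *Lefty1* read 8.39, 6.56, 3.88 and 5.57 CPM in XX and 161, 165, 142 and 159.5 CPM in XY (log2 difference 4.82 ± 0.30 SE, adjusted p = 1.92e-16). *Lefty2* read 6.29, 5.79, 8.53 and 5.29 CPM in XX and 319, 282, 331 and 276 CPM in XY (log2 difference 5.51 ± 0.25 SE, adjusted p = 3.7e-22). The paralogues are near neighbours on chromosome 1 (*Lefty2* at chr1:180720635-180726932 and *Lefty1* at chr1:180762587-180765971, GRCm39), and reads in stretches they share could have been divided between them.

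*Otx2*, a homeobox gene of the epiblast, was 4.47 ± 0.751 CPM in XX and 37.3 ± 7.79 CPM in XY (log2 difference 3.03 ± 0.29 SE, adjusted p = 6.76e-09). *Pmepa1*, which encodes a feedback inhibitor of TGF-beta signalling, was 5.07 ± 2.46 and 27 ± 8.24 CPM (log2 difference 2.59 ± 0.32 SE, adjusted p = 7.98e-06). Neither of these targets overlapped between the groups.

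Unlike the co-receptor *Cripto*, the activin receptors and the intracellular transducers tested did not pass the test. The 3 activin receptors tested had log2 differences between -0.38 and -0.04, and the transducers *Smad2*, *Smad3*, *Smad4* and *Foxh1* between -0.29 and -0.02, with *Acvr2b* at 151 ± 31.7 CPM in XX and 153 ± 31.7 CPM in XY. *Smad7*, an inhibitory SMAD, was 26.7 ± 3.06 against 44.2 ± 5.84 CPM without overlap (log2 difference 0.76, adjusted p = 0.986 with limma). *Gdf3*, another ligand of the pathway, was 45.6 ± 11.7 and 57.5 ± 8.24 CPM and its groups overlapped.

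The *Lefty* promoters are shown because the pair moved together. The 250 bases before each annotated start (GENCODE M39, GRCm39, plus strand) are printed 5′ to 3′ with each match to the SMAD box CAGAC, searched on both strands, in capitals. The windows are chr1:180762337-180762586 and chr1:180720385-180720634.
Lefty1: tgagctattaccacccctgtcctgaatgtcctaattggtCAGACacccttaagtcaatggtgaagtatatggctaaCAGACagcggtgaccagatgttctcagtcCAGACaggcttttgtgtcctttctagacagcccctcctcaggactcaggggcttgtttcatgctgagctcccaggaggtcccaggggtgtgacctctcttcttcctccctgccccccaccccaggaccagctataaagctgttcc
Lefty2: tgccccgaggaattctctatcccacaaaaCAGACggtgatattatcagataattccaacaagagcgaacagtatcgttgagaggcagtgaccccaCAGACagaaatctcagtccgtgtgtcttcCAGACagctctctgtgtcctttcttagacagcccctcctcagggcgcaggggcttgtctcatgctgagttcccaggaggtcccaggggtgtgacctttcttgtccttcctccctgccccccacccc
Each window held 3 matches, beginning at bases -211, -174 and -145 in *Lefty1* and -221, -155 and -126 in *Lefty2*, and 1.98% of the windows of all 14335 autosomal genes tested held at least 3. A global alignment of the pair matched 179 of 274 columns (65.3%), and their longest identical run was 27 bases. None of *Nodal*, *Otx2* and *Pmepa1* had a match in its window, and *Cripto* had 1. The motif was chosen after the letters had been seen, and a match is no evidence of a bound site.

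*Cripto* is shown with the core FOXH1 motif AATNNACA in capitals, again on both strands. Its window is chr9:110775293-110775542 on the minus strand.
Cripto: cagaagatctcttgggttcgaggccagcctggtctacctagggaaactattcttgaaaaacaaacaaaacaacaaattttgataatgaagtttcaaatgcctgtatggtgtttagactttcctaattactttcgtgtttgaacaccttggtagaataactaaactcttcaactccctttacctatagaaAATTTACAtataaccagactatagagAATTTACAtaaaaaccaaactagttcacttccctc
The motif was found at bases -61 and -35, and 0.76% of all windows held at least 2 matches, with 8.83% holding at least 1. Among the 191 genes called higher in XY 7.33% held at least 1, and among the 214 called lower 6.08% did. Here too a match is no evidence of a bound site. *Otx2* also had a match, and *Nodal*, *Lefty1*, *Lefty2* and *Pmepa1* had none.

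*Tmem63a*, which encodes an ion channel, lies 3.91 kb after *Lefty1* and was named after its values had been seen. Its level was 4.45 ± 1.4 CPM in XX and 27.2 ± 2.3 CPM in XY (log2 difference 2.51 ± 0.31 SE, adjusted p = 5.61e-06).

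BMP target genes moved in the opposite direction. Of 21 BMP pathway genes tested out of 23 listed, 7 were lower and 1 was higher in XY germ cells, where 1.65% of all genes tested were called lower, and the median log2 difference was -0.80. The 7 were all targets: *Id1*, *Id2*, *Id3*, *Id4*, *Msx1*, *Msx2* and *Gata2*. They kept their call under each of the 20 alternatives. After subtraction of shared-index counts *Smad9* was called too, at -2.83 (adjusted p = 0.0439, limma), and it was 1.87 ± 1.74 CPM in XX and 0.288 ± 0.42 CPM in XY.

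The ID proteins are helix-loop-helix inhibitors of differentiation factors. *Id1* was 182 ± 32.1 CPM in XX and 7.96 ± 1.8 CPM in XY, and the fitted value was 21.8-fold higher in XX. *Id2* read 53.9, 66.4, 67.9 and 64.9 CPM in the XX and 13.2, 13.7, 17.8 and 4.31 CPM in the XY libraries (log2 difference -2.60 ± 0.25 SE, adjusted p = 1.07e-08). XY replicate 6 was the lowest and every XX library lay above every XY library. *Id3* (308 ± 48 against 91.5 ± 29.3 CPM, log2 difference -1.70 ± 0.15 SE, adjusted p = 6.39e-08) and *Id4* (78.6 ± 8.86 against 26.2 ± 4.12 CPM, log2 difference -1.54 ± 0.16 SE, adjusted p = 1.98e-05) differed less in fold and remained well above 20 CPM on average in XY.

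*Gata2*, a zinc finger factor that BMP signalling induces in several tissues, read 139.9, 142, 156 and 174 CPM in XX and 5.7, 10.6, 13.4 and 5.49 CPM in XY (log2 difference -4.21 ± 0.28 SE, adjusted p = 1.47e-15). *Msx1* and *Msx2*, homeobox targets of BMP, were also high in XX. *Msx1* read 35.7, 32.4, 28.3 and 44.6 CPM in XX and 3.95, 2.33, 1.78 and 3.92 CPM in XY (log2 difference -3.54 ± 0.40 SE, adjusted p = 1.43e-07). For *Msx2* the means were 21.4 ± 5.05 and 2.74 ± 1.49 CPM (log2 difference -3.13 ± 0.40 SE, adjusted p = 5.59e-06). The BMP targets *Smad6*, *Bambi*, *Atoh8* and *Hey1* did not pass the test, with log2 differences of -0.80, -0.56, -1.30 and 0.95.

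The receptors and ligands of the BMP pathway were not called. *Bmpr1a* was 80.9 ± 11.6 CPM in XX and 67.9 ± 11.5 CPM in XY with overlapping groups. *Bmp4* (14.6 ± 3.96 against 27.7 ± 6.48 CPM) and *Bmp7* (17.1 ± 2.63 against 36.7 ± 7.26 CPM) had their higher values in XY, at limma adjusted p of 0.173 and 0.0805. The signal transducer *Smad1* was higher in XY (14.1 ± 2.46 against 30.8 ± 5.82 CPM, log2 difference 1.26 ± 0.20 SE, adjusted p = 0.0303), although it was called in only 11 of the 20 alternatives and lost its call without any of XX replicates 3, 4 and 5 or XY replicates 3 and 6.

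**Figure D2:**
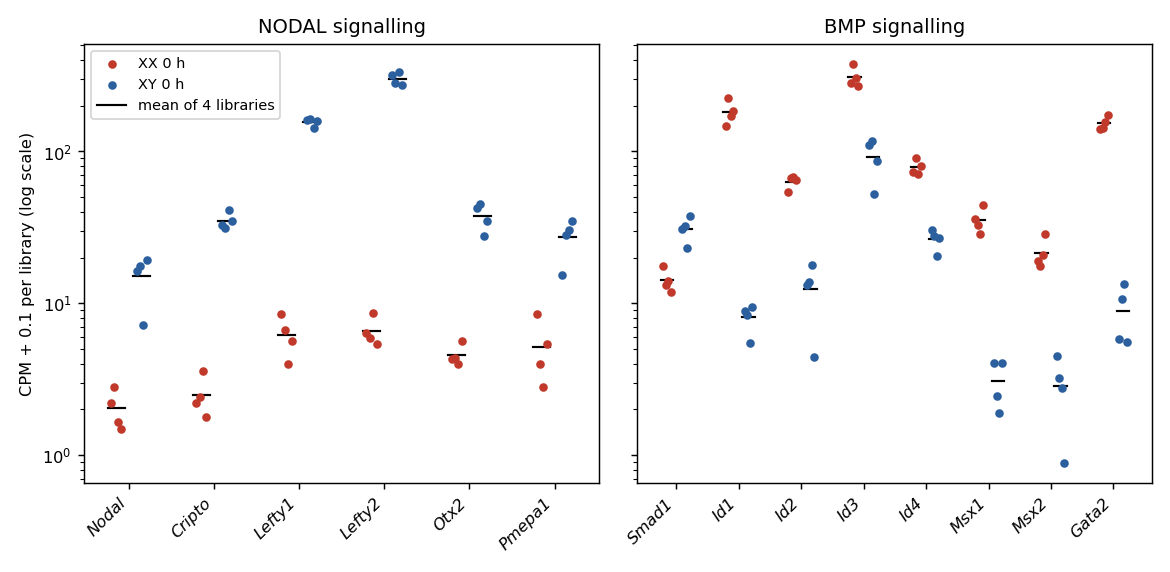
CPM + 0.1 (y axis, log scale) of the called NODAL (left) and BMP (right) pathway genes named in the text in each of the 4 XX (red) and 4 XY (blue) libraries, with a bar at the mean. For each gene shown the 2 groups of points do not overlap, with XY above XX for the NODAL genes and *Smad1* and below it for the 7 BMP targets.

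Among meiotic genes, *Stra8*, *Rec8* and *Meioc* were lower in XY with either treatment of the counts. Of 37 genes tested out of 37 listed, 9 were lower and none was higher in XY germ cells as deposited, where 1.65% of all genes tested were called lower, and 3 were lower after subtraction of shared-index counts, where 1.67% were. The median log2 difference as deposited was -0.96, and 2 of the 6 entry genes were called. *Stra8*, the retinoic acid-responsive gatekeeper of meiosis, read 72, 111, 92.3 and 95.3 CPM in the XX and 12.7, 7.26, 9.8 and 5.09 CPM in the XY libraries (log2 difference -3.59 ± 0.38 SE, adjusted p = 1.84e-08). *Rec8*, which encodes a meiotic cohesin, read 75.5, 77.6, 88.8 and 82.2 CPM in XX and 8.77, 7, 12.5 and 12.5 CPM in XY (log2 difference -3.16 ± 0.25 SE, adjusted p = 1.75e-11). *Meioc*, whose product stabilises the meiotic programme, was 31.7 ± 4.04 against 5.67 ± 1.84 CPM (log2 difference -2.76 ± 0.34 SE, adjusted p = 4.45e-06). None of these 3 overlapped between the groups.

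These 3 genes, and no other of the 9, were still called once shared-index counts had been subtracted. Their subtracted log2 differences were -4.12 (adjusted p = 4.52e-05), -3.37 (7.43e-11) and -2.23 (0.00469) with limma. The other 6 encode parts of the chromosome axis and synaptonemal complex (*Sycp1*, *Sycp3*, *Syce3*), the hotspot methyltransferase *Prdm9* and the telomere attachment factors *Terb1* and *Spdya*. *Prdm9* had 273 counts in the 4 XX libraries together, of which 12 remained, and 34 in the XY libraries, of which 27 remained. Its level in the XX 72 h partners was 761 ± 37.1 CPM, and the subtracted log2 difference was 1.32 in place of -2.94. The sign changed for *Terb1* (-2.54 to 0.63) and *Spdya* (-2.63 to 1.70) as well. *Sycp1* and *Sycp3* kept their direction, with 209.8 ± 14.5 against 79.2 ± 13 CPM and 175 ± 24.1 against 79.8 ± 7.57 CPM as deposited, and adjusted p of 0.101 and 0.685 after subtraction. Calls were also lost without XX replicate 3 or XY replicate 3 or 6 for *Sycp3*, without XX replicate 4 or 5 or XY replicate 3 or 6 for *Syce3*, and without XY replicate 3 for *Terb1* and *Spdya*.

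Most of the prophase machinery was not called under either treatment of the counts. *Smc1b*, a meiotic cohesin subunit, was 867 ± 64 CPM in XX and 499 ± 38.2 CPM in XY (log2 difference -0.78), while *Spo11*, which makes the meiotic double-strand breaks, was 4.58 ± 1.49 and 4.87 ± 2.24 CPM. *Meiosin*, the partner of STRA8, was low at 2.5 ± 0.878 and 0.673 ± 0.772 CPM.

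The *Stra8* promoter is shown because *Stra8* and *Rec8* are retinoic acid-responsive and moved together. Its window is chr6:34897600-34897849 (GRCm39, plus strand), with the retinoic acid receptor core motif AGGTCA, searched on both strands, in capitals.
Stra8: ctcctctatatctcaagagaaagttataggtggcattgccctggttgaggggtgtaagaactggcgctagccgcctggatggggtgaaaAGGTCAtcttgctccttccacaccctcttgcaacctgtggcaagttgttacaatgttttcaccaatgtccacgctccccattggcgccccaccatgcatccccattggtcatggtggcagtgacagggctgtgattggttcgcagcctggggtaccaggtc
There was 1 match, beginning at base -161, and 11.5% of the windows of all autosomal genes tested held at least 1. *Rec8* and *Crabp1* had none in their windows. Genes of the other sets held matches in both directions, with 1 each in *Lefty1*, *Lefty2*, *Id2* and *Notum* and 2 in *Id3*.

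In the retinoic acid list 14 of 23 genes were tested, and 3 were lower in XY, against 1.65% of all genes tested: *Stra8*, *Rec8* and *Crabp1*, which encodes a cellular retinoic acid-binding protein. *Crabp1* was 58.1 ± 7.86 CPM in XX and 19.4 ± 5.56 CPM in XY (log2 difference -1.58 ± 0.21 SE, adjusted p = 0.000586), and *Crabp2* was 7.23 ± 4.47 and 1.84 ± 0.26 CPM, called after subtraction (adjusted p = 0.0344, limma) and not before (0.0867). The receptors *Rara* (36.9 ± 3.11 and 41.1 ± 5.07 CPM) and *Rxra* (24.6 ± 5.41 and 13.4 ± 0.971 CPM) were not called.

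Most male pathway genes were not called at 0 h. Of 23 male germ cell and piRNA genes tested, 4 were higher in XY and none was lower, where 1.34% of all genes tested were called higher, and the median log2 difference was 0.21. *Tdrd5*, a Tudor protein of the piRNA pathway, read 36.4, 37.8, 27.2 and 35.1 CPM in XX and 71.1, 78.6, 72.2 and 89.4 CPM in XY (log2 difference 1.24 ± 0.14 SE, adjusted p = 0.00081), and remained called after subtraction (1.13, adjusted p = 0.0155). The other 3 were lost. *Spocd1*, a factor of piRNA-directed DNA methylation, had no count in any XX library and 10.5, 2.85, 8.91 and 5.88 CPM in the XY libraries, a mean at least 23.9-fold higher than the 0.295 CPM that 3 counts over the XX group allow. Its 60 XY counts fell to 0 on subtraction, with 197 ± 26.1 CPM in the XY 72 h partners. *Dnmt3l*, the cofactor of de novo DNA methylation, went from 30 to 1 XY counts, and the transcription factor *Sohlh1* from 74 to 4. Both also lost their call without XX replicate 4 or 5, and *Dnmt3l* without XY replicate 5. With the 8 libraries at 0 h alone neither *Spocd1* nor *Dnmt3l* passed the filter on low counts, so their tests rest on the fit over all 40 libraries. *Nanos2*, a determinant of male germ cell fate, was 0.29 ± 0.371 CPM in XX and 0.853 ± 0.354 CPM in XY, and *Piwil2* was 75.7 ± 14 and 83.3 ± 8.9 CPM, neither being called.

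**Figure D3:**
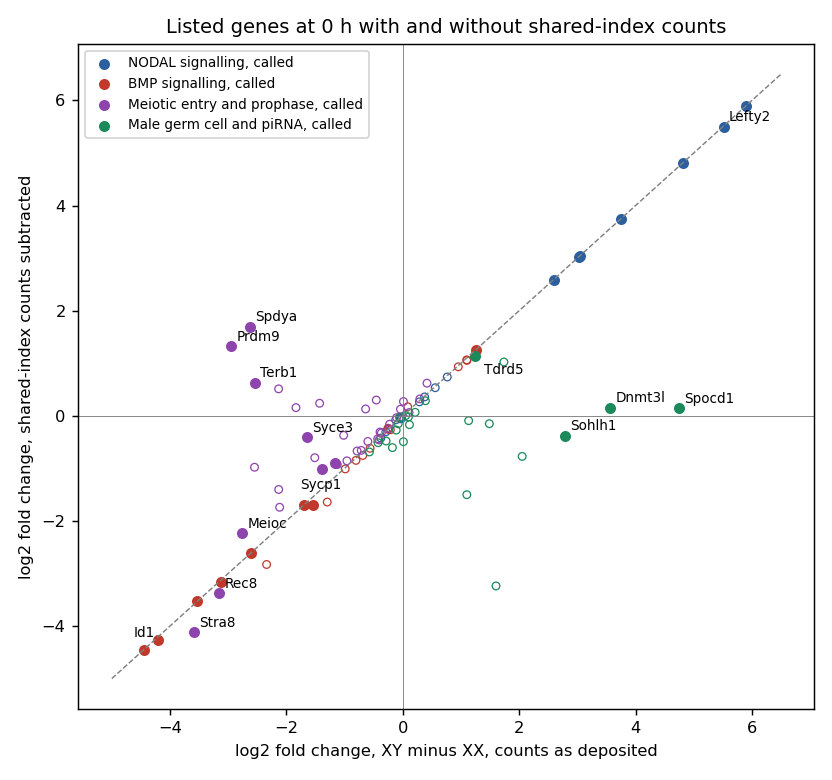
Log2 fold change (XY minus XX) at 0 h from the counts as deposited (x axis) and after subtraction of shared-index counts (y axis) for the tested NODAL, BMP, meiotic and male pathway genes. Filled points were called from the deposited counts and open points were not, and the dashed line marks equal values. The called NODAL and BMP genes lie on or near the line, whereas *Spocd1* and *Dnmt3l* lie near 0 on the y axis and *Sohlh1*, *Prdm9*, *Terb1* and *Spdya* have changed sign.

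Pluripotency genes, which fetal germ cells share with embryonic stem cells, included 2 that were higher in XY, *Cripto* and *L1td1*. They were 9.09% of the 22 tested, where 1.34% of all genes tested were called higher, and the list median was 0.05. *L1td1*, an RNA-binding protein gene, read 180.4, 207, 178 and 188 CPM in XX and 430.4, 372, 395 and 429 CPM in XY (log2 difference 1.10 ± 0.13 SE, adjusted p = 0.00813), and lost its call without XX replicate 4. The core factors were not called: *Nanog* was 73.4 ± 5.58 CPM in XX and 73.3 ± 2.57 CPM in XY, *Pou5f1* 89.6 ± 19.1 and 98.9 ± 4.01 CPM, and *Sox2* 374 ± 33.4 and 303 ± 15.2 CPM.

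Among 17 primordial germ cell genes tested, 2 were lower in XY, against 1.65% of all genes tested. *Tfap2c*, a specifier of the germ line, was 126 ± 18.3 CPM in XX and 58.3 ± 3.18 CPM in XY (log2 difference -1.13 ± 0.15 SE, adjusted p = 0.0127). *Alpl*, which encodes the alkaline phosphatase long used to stain these cells, was 137 ± 7.96 and 62.4 ± 19.1 CPM (log2 difference -1.12 ± 0.14 SE, adjusted p = 0.0127). *Tfap2c* lost its call without XX replicate 5 or XY replicate 3, and *Alpl* without XX replicate 5 or XY replicate 5 or 6. *Prdm1*, *Prdm14*, *Kit*, *Ddx4* and *Dazl* were not called.

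Of the 10 oocyte genes tested, *Irx3*, *Irx5* and *Figla* were lower in XY and *Sohlh1*, described above, was higher, where 1.65 and 1.34% of all genes tested were called lower and higher. *Irx3*, an Iroquois homeobox gene, read 34.3, 32.4, 24.8 and 20.3 CPM in XX and 3.95, 3.37, 3.56 and 1.57 CPM in XY (log2 difference -3.04 ± 0.37 SE, adjusted p = 2.21e-06). *Irx3* is also a marker of ovarian supporting cells, and the defining supporting cell gene *Foxl2* stood at 1.07 ± 0.477 CPM in XX and 0.0648 ± 0.13 CPM in XY. *Irx5*, its neighbour in the same gene cluster, was 3.45 ± 0.33 and 0.306 ± 0.38 CPM (log2 difference -3.26 ± 0.66 SE, adjusted p = 0.00495), lost its call without XY replicate 3 and did not pass the filter on low counts with the 8 libraries at 0 h alone. The oocyte transcription factor *Figla* was 8.62 ± 0.897 and 1.89 ± 1.72 CPM and was not called after subtraction (adjusted p = 0.975, limma), nor without XX replicate 3 or 4 or XY replicate 2, 3 or 6.

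FGF and ERK signalling genes were mixed. Of 32 tested, 3 were higher in XY (*Etv1*, *Etv4* and *Spry2*) and *Dusp5* was lower, against 1.34% higher and 1.65% lower among all genes tested, with a list median of 0.21. The ETS factor *Etv1* read 15.4, 7.72, 8.53 and 11.1 CPM in XX and 115, 125, 109.6 and 117 CPM in XY (log2 difference 3.57 ± 0.23 SE, adjusted p = 2.52e-15), without overlap. *Etv4* was 32.8 ± 5.63 and 72.9 ± 5.03 CPM (log2 difference 1.16 ± 0.14 SE, adjusted p = 0.00576) and lost its call without XX replicate 3 or XY replicate 3, and *Etv5*, the third member of that ETS family, was 164 ± 11.3 and 236 ± 16.2 CPM without a call (log2 difference 0.55). The MAP kinase phosphatase *Dusp5* read 59.5, 50.6, 67.5 and 81.7 CPM in XX and 29.8, 29.8, 25 and 18.4 CPM in XY (log2 difference -1.36 ± 0.17 SE, adjusted p = 0.0012). The feedback inhibitors *Dusp6* (34.2 ± 3.26 and 50.6 ± 2.02 CPM), *Dusp4* (85.6 ± 3.48 and 137 ± 6.53 CPM) and *Spry1* (16.2 ± 3.79 and 26.7 ± 5.77 CPM) did not pass the test. *Spry2* overlapped between the groups, with XX replicate 2 at 41.3 CPM, and lost its call without XX replicate 4 or 5 or XY replicate 3 or 6. The receptor *Fgfr1* was 102 ± 7.1 and 90.4 ± 9.96 CPM. The 5 receptors tested had log2 differences from -1.21 to 2.04, and none of them or of the 7 kinases tested was called.

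Canonical WNT targets were lower in XY where they differed. Of 14 WNT genes tested, *Axin2*, *Notum* and *Ccnd1* were lower and none was higher, against 1.65% lower among all genes tested, with a list median of -0.29. *Axin2*, a feedback inhibitor and general WNT target, read 72.7, 81.1, 106 and 98.9 CPM in XX and 23.7, 32.2, 33 and 35.7 CPM in XY (log2 difference -1.56 ± 0.15 SE, adjusted p = 3.23e-06). The cyclin D1 gene *Ccnd1* read 44.8, 50.6, 58.2 and 60.8 CPM in XX and 6.14, 10.9, 8.91 and 23.5 CPM in XY (log2 difference -2.23 ± 0.22 SE, adjusted p = 1.32e-07), with XY replicate 6 the highest of its group. *Notum*, which encodes a secreted WNT deacylase, was 18.2 ± 3.33 and 5.66 ± 1.17 CPM (log2 difference -1.80 ± 0.29 SE, adjusted p = 0.00377), and lost its call without XY replicate 3. *Lef1* and *Tcf7* were not called, and *Ctnnb1* was 362 ± 56.1 and 355 ± 38.4 CPM.

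In the NOTCH and Hedgehog list 14 genes were tested, with 2 higher and 1 lower in XY, while 1.34% of all genes tested were higher and 1.65% lower. The receptor *Notch1* was lower in XY, reading 30.8, 29.7, 39.6 and 40.7 CPM in XX and 9.21, 11.2, 8.91 and 13.3 CPM in XY (log2 difference -1.71 ± 0.21 SE, adjusted p = 6.89e-05). The receptor *Notch3* was higher in XY, at 1.55 ± 1.83 CPM in XX and 7.9 ± 2.18 CPM in XY (log2 difference 3.13 ± 0.58 SE, adjusted p = 0.00199). The divergent NOTCH ligand *Dll3* was also higher in XY, at 4.67 ± 1.43 and 19.9 ± 1.52 CPM (log2 difference 2.12 ± 0.30 SE, adjusted p = 0.000281). No Hedgehog pathway gene was called.

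The 25 replication and mitosis genes tested had log2 differences from -0.37 to 0.50, all smaller than a 1.5-fold change. Of 18 cell cycle arrest genes, *Ccnd1* and the CDK inhibitor *Cdkn1c* were lower in XY, where 1.65% of all genes tested were. *Cdkn1c* read 104, 119, 111 and 117 CPM in XX and 44.8, 49.8, 57 and 43.9 CPM in XY (log2 difference -1.24 ± 0.15 SE, adjusted p = 0.00179). *Cdkn1b*, the p27 gene linked to male germ cell arrest, was 4.04 ± 3.07 and 6.26 ± 1.17 CPM and was not called.

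The largest fitted difference among the 214 genes lower in XY was that of an imprinted gene. Of 23 tested, 4 were lower and 1 was higher in XY, against 1.65 and 1.34% of all genes tested. *Phlda2*, a maternally expressed growth restrictor best known in placenta, read 353, 256, 241 and 278 CPM in XX and 3.07, 3.63, 2.67 and 5.88 CPM in XY (log2 difference -6.07 ± 0.39 SE, adjusted p = 1.06e-16). *Slc22a18*, a transporter gene next to it, read 25.2, 31.3, 29.5 and 26.5 CPM in XX and 1.75, 1.3, 3.56 and 1.96 CPM in XY (log2 difference -3.85 ± 0.36 SE, adjusted p = 5.56e-10). With *Cdkn1c* these genes lie close together on chromosome 7 (*Cdkn1c* at chr7:143012069-143014806, *Slc22a18* at chr7:143027466-143053072 and *Phlda2* at chr7:143055282-143056887, GRCm39), and all 3 were lower in XY. *Kcnq1ot1*, the noncoding transcript of the same imprinted domain, was 97 ± 18.2 and 98.8 ± 20.6 CPM. *Plagl1* was 22.9 ± 5.87 and 5.95 ± 3.26 CPM (log2 difference -2.07 ± 0.27 SE, adjusted p = 9.06e-05), and *Mest*, a paternally expressed gene, was higher in XY at 25.2 ± 3.72 and 60.2 ± 3.98 CPM (log2 difference 1.30 ± 0.19 SE, adjusted p = 0.0106). *Mest* lost its call without XX replicate 5 or XY replicate 3. *H19*, *Peg3* and *Snrpn* were not called. The counts do not separate the parental alleles.

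Of the 15 DNA methylation genes tested, *Dnmt3l* was called higher and *Tet2* lower in XY, against 1.34 and 1.65% of all genes tested. The *Dnmt3l* call was lost on subtraction, as given above, and with the 8 libraries at 0 h alone the gene did not pass the filter on low counts. *Tet2*, which encodes a 5-methylcytosine oxidase, read 42, 40.5, 46.2 and 49 CPM in XX and 14.9, 15, 12.5 and 16.9 CPM in XY (log2 difference -1.57 ± 0.19 SE, adjusted p = 0.000222). *Tet1*, its paralogue, was 379 ± 26.9 and 593 ± 72.5 CPM and was not called (log2 difference 0.59). *Dnmt1* and *Uhrf1* were not called.

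In the BCL2 family, 1 of 13 genes passed the test, being higher in XY, as were 1.34% of all genes tested. *Pmaip1*, which encodes the pro-apoptotic BH3-only protein NOXA, read 0.699, 1.54, 1.16 and 1.67 CPM in XX and 37.3, 49.3, 42.8 and 48.6 CPM in XY (log2 difference 4.89 ± 0.42 SE, adjusted p = 9.91e-12). All 4 XY libraries lay above every XX library. The effector gene *Bax* was 78.8 ± 5.4 and 117 ± 15.6 CPM without a call, and the pro-survival genes *Mcl1* and *Bcl2l1* had log2 differences of -0.01 and -0.17.

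Among metabolic genes, 1 of 22 glycolytic genes and 1 of 5 prostaglandin genes tested were called, both higher in XY, where 1.34% of all genes tested were called higher. The glycolytic gene was *Hk2* (23.5 ± 2.53 and 51.6 ± 11.2 CPM, log2 difference 1.14 ± 0.16 SE, adjusted p = 0.0224), and its adjusted p was 0.0568 after subtraction. It also lost its call without XX replicate 3 or 4 or XY replicate 2 or 3. The 89 nuclear genes of oxidative phosphorylation took 2.40 ± 0.14% of counts in XX and 2.17 ± 0.133% in XY libraries (p = 0.0571, two-sided exact permutation test), and the 37 mitochondrial genes took 1.48 ± 0.201 and 1.56 ± 0.323% (p = 0.714, exact permutation test). *Ptgs1*, the cyclooxygenase 1 gene of prostaglandin synthesis, read 0.699, 4.25, 3.49 and 4.74 CPM in XX and 36.4, 45.9, 47.2 and 34.9 CPM in XY (log2 difference 3.47 ± 0.32 SE, adjusted p = 6.71e-10).

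Of 24 adhesion and cell surface genes, *Cd24a* and *Cldn6* were lower and *Epha2* was higher in XY, where 1.65% of all genes tested were lower and 1.34% higher. The cell surface glycoprotein gene *Cd24a* read 141, 158, 137 and 139 CPM in XX and 63.6, 59.9, 45.4 and 55.6 CPM in XY (log2 difference -1.32 ± 0.13 SE, adjusted p = 2.52e-05). The ephrin receptor *Epha2* was 5.9 ± 1.61 and 23.9 ± 2.61 CPM (log2 difference 1.92 ± 0.25 SE, adjusted p = 0.000121). *Cldn6*, a tight junction gene, was 8.98 ± 3.25 and 1.65 ± 0.524 CPM (log2 difference -2.32 ± 0.49 SE, adjusted p = 0.0169), and lost its call without XY replicate 3 or 6.

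**Figure D4:**
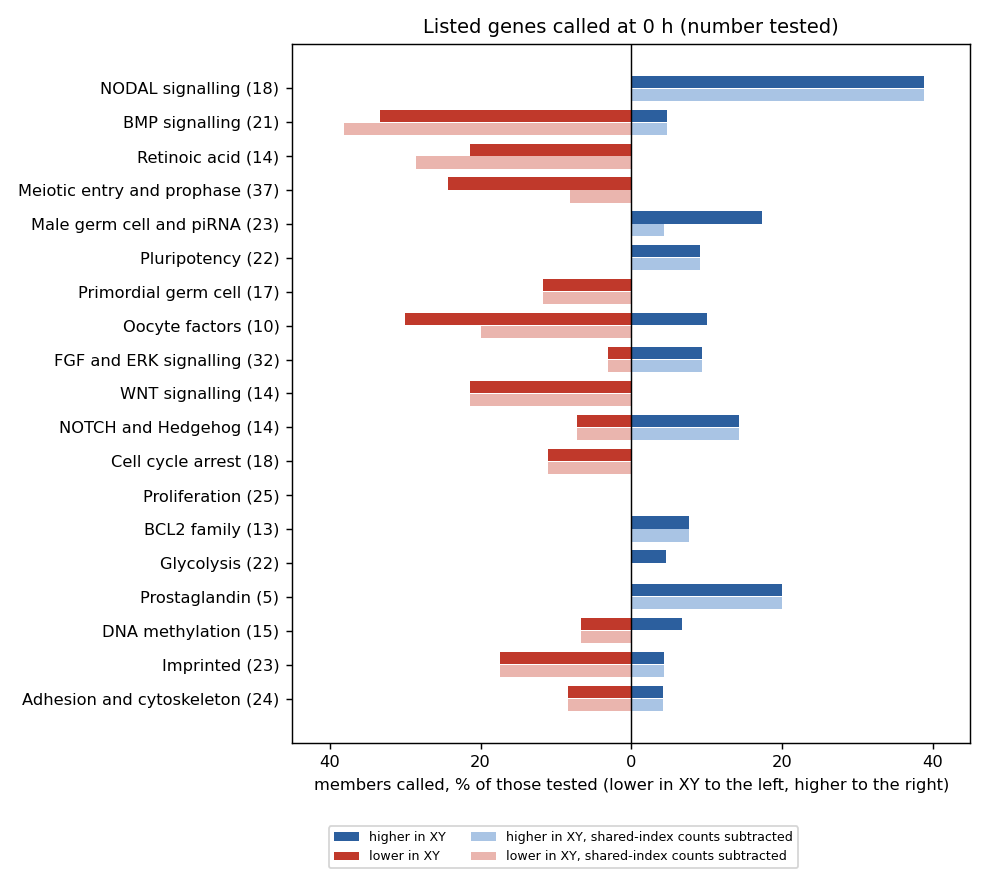
Share of the tested members of each gene list that was called at 0 h (x axis, %), lower in XY to the left (red) and higher in XY to the right (blue), with the number tested after each name on the y axis. Dark bars use the deposited counts and pale bars the counts after subtraction of shared-index counts. The NODAL and BMP lists keep their calls, and the meiotic list falls from 9 to 3 and the male list from 4 to 1.

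The genes with the largest differences outside these lists were of varied function. Higher in XY were *Spats2l* (2.93 ± 2.05 and 32.5 ± 2.71 CPM), *Enpp2*, which encodes the lysophosphatidic acid-producing enzyme autotaxin (2.67 ± 2.19 and 23.5 ± 3.18 CPM), *Acsbg1* (1.37 ± 0.472 and 16.3 ± 3.44 CPM) and *Rassf5* (2 ± 1.37 and 17.5 ± 4.95 CPM). *Mgst2*, *Pdzd2*, *Proc* and *Gm5454* were also among the 15 largest, with log2 differences of 3.26 to 3.90. Higher in XX were *Calcoco2*, an autophagy receptor gene, which read 53.2, 92.3, 87.3 and 84.2 CPM in XX and 4.39, 2.08, 2.67 and 3.14 CPM in XY (log2 difference -4.80 ± 0.42 SE, adjusted p = 2.98e-11), and the transcription factors *Cdx2* (11.5 ± 3.02 and 1.01 ± 0.93 CPM) and *Gata3* (16.7 ± 1.61 and 1.14 ± 0.822 CPM). *Sct*, which encodes the hormone secretin, was 45 ± 8.65 and 3.27 ± 0.997 CPM (log2 difference -3.70 ± 0.40 SE, adjusted p = 3.38e-08). *Dnah8*, *Pwwp2b*, *Slc28a1*, *Trmt9b* and *Inca1* also ranked among the 15 largest, and of these *Trmt9b* lost its call without XY replicate 3 and *Inca1* changed sign after subtraction (-3.68 to 0.49).

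The same contrast was then read between the XY and XX libraries of 24 h, in the same fit over all 40 libraries. After 24 h in DMSO, 108 of the 191 autosomal genes higher in XY at 0 h were again higher, 81 were not called and 2 were lower, where 4.07% of autosomal genes were called higher and 5.55% lower at that time (9.62% in all). Of the 214 genes lower in XY at 0 h, 151 were again lower, 63 were not called and none was higher. At 24 h the index partners were other libraries. XX shared theirs with XY 72 h libraries cultured with the FGF receptor inhibitor. XY shared theirs with XY 72 h libraries cultured with the MEK inhibitor. The share of the partner was bounded at 3.90 to 4.70% in XX and at 5.96 to 11.2% in XY libraries. Calls and CPM values at 24 h are given as deposited. The 2 genes that were higher in XY at 0 h and lower at 24 h were *Dnmt3l* and *Spocd1*. *Spocd1* read 8.47 ± 4.05 CPM in XX and 3.31 ± 4.76 CPM in XY germ cells at 24 h.

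*Lefty2* was 2.3 ± 1.07 CPM in XX and 75 ± 17.9 CPM in XY at 24 h (log2 difference 5.11, limma adjusted p = 2.73e-11), and 7 of the 18 NODAL genes were called higher there, among them *Nodal*, *Cripto*, *Lefty1*, *Lefty2*, *Otx2* and, not called at 0 h, *Gdf3*. *Pmepa1* was not called at 24 h (log2 difference 1.14, adjusted p = 0.291). *Gata2* stood at 133 ± 28.4 and 3.55 ± 1.54 CPM (log2 difference -5.23) and *Id2* at 50.7 ± 9.73 and 5.14 ± 3.52 CPM (-3.52). *Stra8* stood at 972 ± 263 CPM in XX and 106 ± 10.4 CPM in XY as deposited, and its log2 difference was -3.12. The XY partners were cultured with the MEK inhibitor, under which the paper reports higher *Stra8*. The part of partner counts in the XY value was not tested. Of the 37 meiotic genes 26 were lower in XY at 24 h, where 5.99% of all genes tested were called lower, 4.0% higher and 9.99% in all.

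The change in the XY minus XX difference between 0 and 24 h was tested directly with an interaction contrast, and 61 of 14335 autosomal genes passed (0.426%). Among the 405 genes called at 0 h, 16 passed. These genes had been chosen by their 0 h difference, which this contrast subtracts, so a smaller difference at 24 h follows in part from the choice. *Id4* was lower in XY at 0 h and was not called at 24 h (70.1 ± 11.4 and 63 ± 10.9 CPM; interaction 1.43, adjusted p = 0.04). *Tet2* went the same way, to 36.8 ± 9.4 CPM in XX and 40.2 ± 5.24 CPM in XY (interaction 1.76, adjusted p = 0.00718). *Dll3*, higher in XY at 0 h, was 12.2 ± 2.1 and 10.2 ± 3.35 CPM at 24 h (interaction -2.44, adjusted p = 0.0114), and the *Spats2l* difference was smaller at 24 h than at 0 h (interaction -2.89, adjusted p = 0.0112). The count of interactions over all genes was 69, and 315 after subtraction of shared-index counts.

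At 72 h in DMSO 23.1% of autosomal genes were called higher and 17.8% lower in XY, and these libraries, in the second pool, are the index partners of the 0 h libraries. Of the 191 genes higher in XY at 0 h, 100 were higher, 5 lower and 86 not called at 72 h. These 100 included 38 of the 51 genes whose 0 h call was lost on subtraction of the partner's counts. The other 62 were among the 140 genes that kept it. Of the 214 lower in XY at 0 h, 68 were lower, 37 higher and 109 not called. Those 68 included 25 of the 28 genes that lost their 0 h call on subtraction, and 43 of the 186 that kept it. Of the 7 NODAL genes only *Pmepa1* was called higher in XY at 72 h, and *Lefty2* stood at 0.592 ± 0.0773 CPM in XX and 2.41 ± 0.613 CPM in XY (log2 difference 1.57, adjusted p = 0.199, limma). *Phlda2* stood at 4.32 ± 3.18 and 6.4 ± 3.01 CPM and was no longer called. *Id1* kept its difference, at 94.2 ± 17.4 and 3.95 ± 1.92 CPM (log2 difference -4.48).

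The XY minus XX difference changed between 0 and 72 h for 29.0% of autosomal genes by the interaction contrast, positively for 16.1% and negatively for 12.9%. Since the pools differ between these times, time and pool cannot be told apart in that contrast.

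Some genes stood in opposite order at 0 and 72 h. *Etv1* was higher in XY at 0 h and lower at 72 h, at 9.47 ± 2.26 CPM in XX and 2.67 ± 1.44 CPM in XY (log2 difference -1.82). *Crabp1*, *Slc22a18*, *Axin2*, *Id4*, *Alpl* and *Cd24a* were among the 37 genes that were lower in XY at 0 h and higher at 72 h. *Crabp1* stood at 21.9 ± 9.48 CPM in XX and 49.1 ± 6.96 CPM in XY by then. *Met*, the hepatocyte growth factor receptor gene, named after its values had been seen, was 8.89 ± 3.4 CPM in XX and 1.54 ± 0.912 CPM in XY at 0 h and 0.582 ± 0.68 and 15.1 ± 1.75 CPM at 72 h, and its 0 h call was lost without XY replicate 3.

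**Figure D5:**
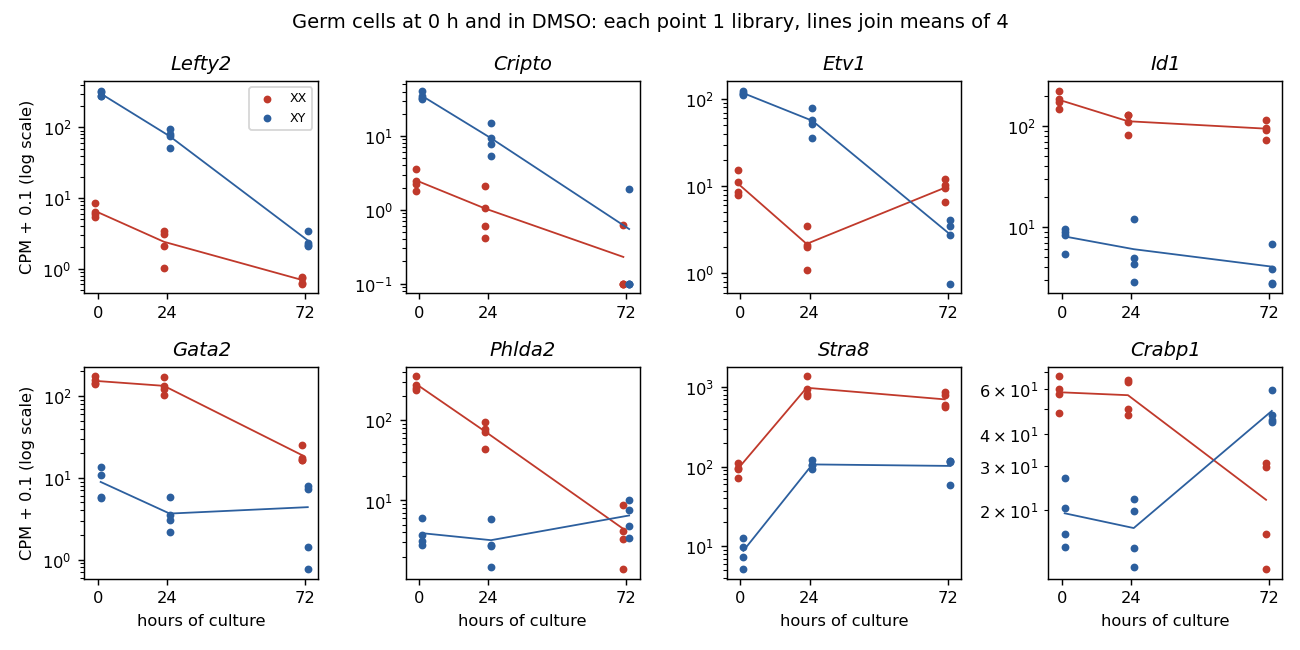
CPM + 0.1 (y axis, log scale) of 8 genes in XX (red) and XY (blue) germ cells at 0 h and after 24 and 72 h of culture in DMSO (x axis, hours), each point 1 library and each line joining the means of 4. XY *Lefty2* and *Cripto* and XX *Phlda2* have their highest means at 0 h, *Id1* and *Stra8* stay higher in XX throughout, and *Etv1* and *Crabp1* change order between 24 and 72 h.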

How the data were processed

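RNA from sorted germ cells was reverse transcribed with a sample index at the poly(A) priming step. The authors aligned the reads to GRCm39 and deposited a table of gene counts in which reads with the same molecular identifier were collapsed, with no normalization. All 40 libraries were matched to their columns by label. Gene identifiers were paired with symbols, positions and promoters through GENCODE M39, which matched 40391 of 42422 identifiers, and the unmatched ones held 1.05% of counts.

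The filterByExpr function of edgeR 4.0.16 (at least 10 counts in enough libraries and 15 in all) retained 15252 genes, which together carried 99.2% of the counts. Counts were scaled by the TMM method and fitted with voom quality weights in limma 3.58.1 (R 4.3.3), with 1 mean per group over all 10 groups, so that the groups shared an estimate of the spread. Differences were tested with treat against a 1.5-fold change at a Benjamini-Hochberg adjusted p under 0.05, over all genes tested. CPM values use the library sizes after TMM scaling, and shares of counts the totals as deposited. Shares of counts were compared with two-sided exact permutation tests over 70 regroupings. For each of 16 library pairs with a common index, the share of the partner's counts was bounded by the 20 genes with the lowest ratio to the partner (at least 100 counts there), picked in the other pairs of the group, and this share of the partner's counts was subtracted as an alternative. The scripts were tested on simulated counts. Total counts of 1178953 to 3894977 per library at 0 h limit the precision for genes of low level, and the 3-count floor covers counting error only.

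The named genes were the members of the lists plus, in each direction, the 15 called autosomal genes with the largest differences whose libraries did not overlap and whose mean in the higher group was at least 10 CPM. *Tmem63a*, *Met*, *Klf6*, *Rnf213*, *Taok3*, *Npw* and *Prom1* were added after their values had been seen. Counts cover all genes tested, and some genes that met the rule are not reported here. The comparison and the lists were chosen with earlier results of these data known. Alternatives comprised other tests (edgeR, DESeq2 1.42.0, limma eBayes), weights, scalings, filters and samples, the subtraction, a replicate block and the omission of each library.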

Additional observations from a re-analysis of the deposited data

Results flagged for a closer look

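The XY minus XX difference differed between 0 and 24 h by the interaction test for 13 named genes. It moved towards XY for *Id4* (1.43), *Tet2* (1.76), *Klf6* (1.74), *Rnf213* (2.05) and *Xist* (3.48), all values being the log2 difference at 24 h less that at 0 h. It moved towards XX for *Dll3* (-2.44), *Spats2l* (-2.89), *Taok3* (-1.63), *Npw* (-3.43), *Prom1* (-3.69), *Sohlh1* (-3.36), *Dnmt3l* (-6.32) and *Spocd1* (-6.93). The last 3 genes were those whose 0 h calls were lost on subtraction of shared-index counts. The limma adjusted p was 5.35e-05 for *Spocd1*, 0.000633 for *Rnf213* and 0.04 for *Id4*, the highest of the 13. *Klf6*, *Rnf213*, *Taok3*, *Npw* and *Prom1* were named after their values had been seen, so the count of 13 is partly set by that choice. Among all autosomal genes tested 0.426% passed. Where a gene was named for its 0 h difference, a smaller difference at 24 h follows in part from the choice. *Prom1*, which encodes a membrane glycoprotein, was 23.5 ± 2.28 CPM in XX and 7.52 ± 1.01 CPM in XY at 0 h and 17.7 ± 4.82 and 0.497 ± 0.824 CPM at 24 h. *Npw*, a neuropeptide gene, was 20.0 ± 2.09 and 7.59 ± 2.38 CPM at 0 h and 37.6 ± 7.98 and 1.05 ± 0.847 CPM at 24 h.

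In 11 of 186 groups of 4 libraries, 1 library lay further from its group than Dixon's critical value, where chance alone passes about 5% of groups. XX replicate 2 stood apart at 1.40 CPM for *Ddx3y*, 6.99 CPM for *Cdx2*, 23.1 CPM for *Npw* and 3.44% for the X-linked share of counts. XX replicate 5 did so at 23.1 CPM for *Notum* and 0.0127% for somatic and blood markers, and XX replicate 3 at 0.386 CPM for *Dnmt3l*. XY replicate 5, the shallowest library, stood apart at 4.46 CPM for *Figla*, 9.80 CPM for *Mgst2* and 0.0153% for stromal markers, and XY replicate 2 at 46.9 CPM for *Taok3*.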

How the results depend on the processing

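The 457 calls at 0 h, and the 191 higher and 214 lower autosomal genes, stayed within 1.5 times of these counts under most alternatives. Testing for any change with an observed fold over 1.5 (limma eBayes) gave 2249, 1066 and 969. Leaving out single libraries gave 298 (without XY replicate 3) to 433, 115 (without XX replicate 5) to 177, and 124 (without XY replicate 3) to 207. Same-numbered libraries did not deviate together (r = -0.12, -0.02 and -0.04), so the numbers were not taken as pairs, and a fit with the replicate number as a block gave 126, 55 and 51. At 24 h edgeR called 2360 genes in place of 1524. The change from 0 to 24 h passed for 69 genes, for 177 with edgeR and for 315 after subtraction of shared-index counts. The difference in the X-linked share of counts was -0.796 percentage points (p = 0.0286, exact permutation test), and -0.838 to -0.764 when single libraries were left out, where the smallest possible p is 0.0571. With the replicate number as a block it was -0.775 (p = 0.25, the smallest an exact sign-flip test over 3 pairs allows). Of 87 named genes called at 0 h, 44 were called under every alternative, 34 lost their call with the replicate block, 20 without XY replicate 3, 18 without a filter on low counts (*Stra8*, *Crabp1* and *Sycp1* among them), 12 after subtraction and 10 with DESeq2. Subtraction reversed the sign of *Prdm9* (1.32), *Terb1* (0.63), *Spdya* (1.70), *Sohlh1* (-0.38) and *Inca1* (0.49). The causes of the other changes were not tested. Depth limits genes with few counts, such as *Dnmt3l* and *Spocd1*.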

Other observations

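Called genes also lay beside each other outside the *Lefty* and *Cdkn1c* stretches. With those stretches included there were 49 pairs of called autosomal genes within 100 kb. Some pairs were overlapping entries, such as *Nphs1* and *Nphs1os*. Pairs among all tested genes were not counted, so whether called genes cluster was not tested. Chromosome 7 had the largest share of its tested genes called (3.92%) and chromosome 16 the smallest (1.55%).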
